A study of Rattus norvegicus with 138 samples.

Results

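Serum miRNAs of rats carrying pellets of 8 metals were compared with those of rats carrying tantalum pellets, 1 month (mo) after implantation. All 36 libraries of that time were taken, and the series holds 36, 34 and 32 more from 3, 6 and 12 mo. The metal side was 32 libraries from 8 groups of 4, namely aluminium (Al), cobalt (Co), copper (Cu), depleted uranium (DU), iron (Fe), lead (Pb), nickel (Ni) and tungsten (W). The other side was the 4 tantalum (Ta) libraries, the surgical control, since tantalum is held to be inert in muscle. Each metal group had equal weight, whatever its library sizes. All animals were male Sprague-Dawley rats, 3 months old at surgery by the series text, and all of them, controls included, had 2 pellets placed in each gastrocnemius, the large muscle of the calf. The labels number the samples of a group from 1 to 4 without saying which rats these were, so each p measures the spread between these samples. A group contrast of this kind sets the control apart from all other implants together and cannot tell an effect shared by the metals from something particular to the 4 Ta libraries.

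MicroRNAs are short RNAs that guide Argonaute proteins to messenger RNAs by pairing of their seed, bases 2 to 8, and so lower the output of these messages. In serum they circulate inside vesicles or bound to Argonaute and lipoproteins, having left blood cells, liver, muscle, endothelium and other tissues. A serum level therefore reports release and clearance as well as cell content, and fewer source cells and less RNA per cell cannot be told apart.

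The sequences of the miRNAs on which the comparison turned are shown here from RefSeq (build GRCr8), with the seed in capitals. First come members of the miR-30 family, which share 1 seed and of which miR-30a-5p rose in the metals. In the 22 bases of both, miR-30a-5p and miR-30e-5p differ by C13U, counted from the 5′ end of miR-30a-5p.
miR-30a-5p: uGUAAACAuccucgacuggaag
miR-30e-5p: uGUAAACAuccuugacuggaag
miR-30c-5p: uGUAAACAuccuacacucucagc
The mature miR-30a-5p lies at chr9:33233946-33233967 on the plus strand, that of miR-30e-5p at chr5:139637504-139637525 on the minus strand within the bounds of Nfyc, and 1 of the copies of miR-30c-5p at chr5:139634505-139634527, also within Nfyc. The family also holds miR-30d-5p. Next are miRNAs called lower in the metals, each with a seed of its own, and last miR-378a-3p, the abundant relative of miR-378b.
miR-9a-5p: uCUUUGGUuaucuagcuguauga
miR-29c-5p: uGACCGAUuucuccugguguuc
miR-379-5p: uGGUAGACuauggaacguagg
miR-127-3p: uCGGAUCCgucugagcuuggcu
miR-451-3p: aUGGUAAUgguucucuugcugcu
miR-378a-3p: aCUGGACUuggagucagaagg
Both miR-127-3p (chr6:134328510-134328531, within the bounds of Rtl1) and miR-379-5p (chr6:134543460-134543480) come from the imprinted Dlk1-Dio3 region. Called lower as well were miR-378b and miR-124-3p.

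Library totals ran from 12213 to 3743726 counts in the metals (median 1322074.5), against 316852 to 539673 in Ta (median 416797.5). A single library at 1 mo had under 20000 counts, Co replicate 1 with 12213 counts and 53 miRNAs detected, and results are given with and without it. Without it the metal libraries were deeper than the Ta libraries by 0.456 on the log10 scale (exact permutation test, two-sided, adjusted p = 0.00063) and detected 218 ± 28.6 miRNAs, against 182 ± 36.6 in Ta (SD, n = 31 and 4, adjusted p = 0.0419). With it these differences did not pass (adjusted p = 0.217 for both). The ratio of red-cell miR-451-5p to miR-23a-3p, a measure of haemolysis, differed by -0.16 on the log2 scale (adjusted p = 0.875), or by -0.59 without Co replicate 1 (adjusted p = 0.412). The liver miRNA miR-122-5p and red-cell miR-451-5p were counted in 32 of 32 metal and 4 of 4 Ta libraries.

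**Figure D1:**
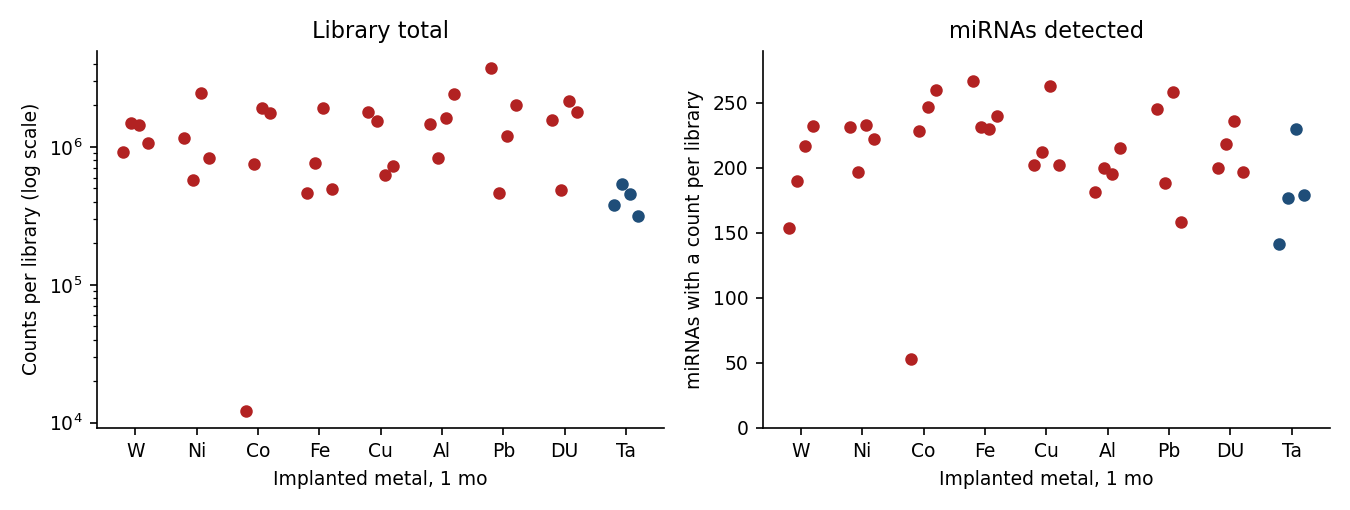
Counts per library (left, log scale) and miRNAs with at least 1 count per library (right) for the 8 metal groups and Ta at 1 mo, 1 point per library. The Ta libraries lie between 316852 and 539673 counts, and Co replicate 1 stands alone at 12213.

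Few miRNAs passed the test between the metals and Ta. Of 270 miRNAs tested, 9 were called (3.33%) by edgeR's quasi-likelihood test at an adjusted p under 0.05: 2 were higher in the metals (0.741%) and 7 lower (2.59%), while 29 had an unadjusted p under 0.05 (10.7%). The 2 higher ones were miR-30d-5p and miR-30a-5p, of 1 family, which rose 2.59-fold and 2.55-fold in mean CPM (counts relative to the library total, scaled by TMM factors). Of the 7 lower ones, miR-378b was above every metal library in all 4 Ta libraries, and the other 6 leaned on 1 to 3 of them. The median difference over all 270 was 0.19 on the log2 scale, and with RLE size factors or no scaling factors it was -0.08 and 0.01, with 0 higher and 10 lower calls each way. Without Co replicate 1, 12 of 289 were called (4.15%), 1 higher (0.346%) and 11 lower (3.81%), of which 8 were among the 9. The 4 others were miR-30d-3p, miR-18a-5p, let-7f-1-3p and miR-129-5p. Of these, let-7f-1-3p (adjusted p = 0.0295) was counted in Ta replicate 4 alone among Ta. In Ta replicate 3 alone among Ta was miR-129-5p counted (adjusted p = 0.0301). With all libraries only miR-18a-5p of them was tested. The smaller Co group loosened the low-count filter, which let in miR-30d-3p, let-7f-1-3p and miR-129-5p.

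The higher group was led by miR-30d-5p. The miR-30 family is broadly expressed in epithelium, kidney and muscle and is known to repress genes of autophagy and of connective tissue growth. Of miR-30d-5p the metal libraries held 1880 to 6379 CPM (median 3639), against 1956, 782, 1245 and 1615 CPM in Ta replicates 1 to 4. Of the 32 metal libraries 31 lay above the highest Ta library, and the exception, a Cu library, lay just below it. The metal mean was 3622 ± 921 CPM and the Ta mean 1400 ± 504 CPM (SD, n = 32 and 4), a log2 difference of 1.35 ± 0.31 (SE, adjusted p = 0.00496). As a share of all counts miR-30d-5p held 0.384% ± 0.179 in the metals, against 0.162% ± 0.0901 in Ta. An exact permutation of the Ta label over the 36 libraries gave an adjusted p of 0.00458, and leaving out any 1 library left adjusted p-values of 0.0015 to 0.0481. The call ended with RLE size factors (log2 1.06, adjusted p = 0.0594), without scaling factors (1.20, 0.169), without the low-count filter (1.07, 0.366) and in a fit of all times together (1.25, 0.562).

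Every metal group had more miR-30d-5p than Ta. The group means were 4692 ± 221 CPM in Pb, 4275 ± 1561 in Fe, 4012 ± 651 in W, 3585 ± 360 in Al, 3441 ± 392 in DU, 3309 ± 494 in Ni, 3086 ± 889 in Cu and 2576 ± 476 in Co, against 1400 ± 504 in Ta (SD, n = 4 each). Neighbouring metals in this order overlapped in their SDs, and Co, the lowest metal, exceeded Ta by log2 0.88. Because the Ta libraries were shallower, the 4 metal libraries of 463512 to 495479 counts, within the range of the Ta totals, were read on their own. These 4 were Fe replicates 1 and 4, Pb replicate 2 and DU replicate 2, so the other metals were not among them. Pb and Fe had the highest group means, and all 4 totals exceeded those of Ta replicates 1, 3 and 4. The 4 libraries held 3004 to 6379 CPM of miR-30d-5p, and all 4 lay above the highest Ta library. With the libraries thinned to 316852 counts, which leaves out Co replicate 1, the log2 difference was 1.13 ± 0.27 (adjusted p = 0.00777). Without Co replicate 1 and without thinning it was 1.30 ± 0.25 (adjusted p = 0.0015).

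**Figure D2:**
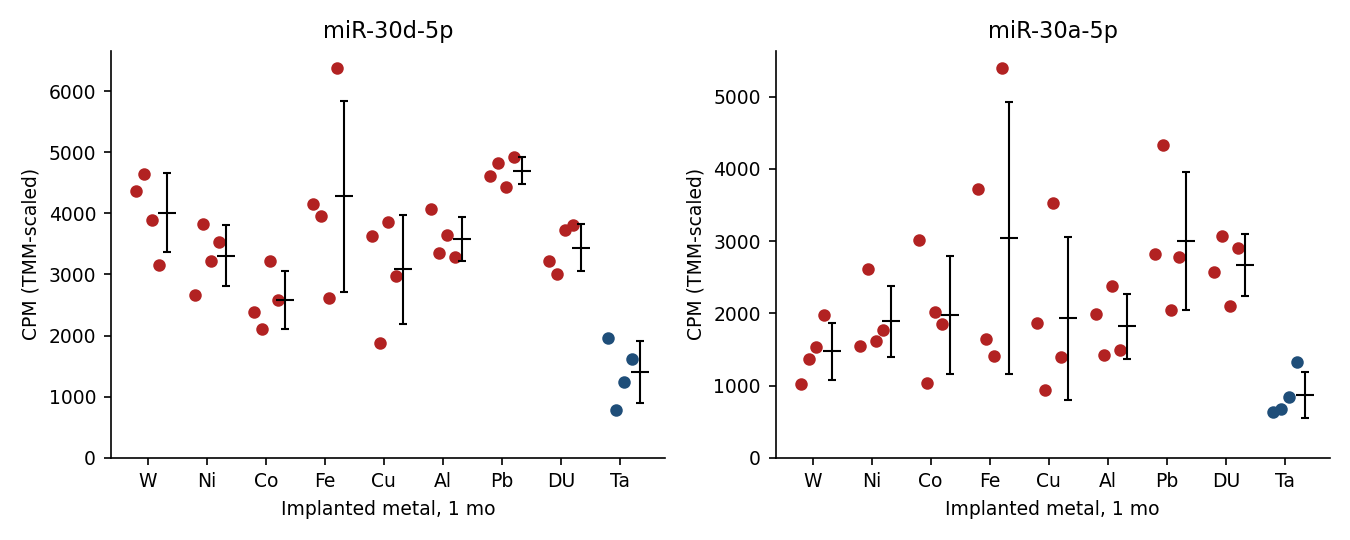
TMM-scaled CPM of miR-30d-5p (left) and miR-30a-5p (right) in each library at 1 mo, by implant, with bars at the group mean ± SD (n = 4). All 8 metal means lie above Ta, whose libraries sit between 782 and 1956 CPM for miR-30d-5p.

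The second higher call, miR-30a-5p, was fragile. It ran from 932 to 5393 CPM in the metals (median 1982), against 635, 676, 840 and 1333 CPM in the 4 Ta libraries. Of 32 metal libraries 29 lay above the highest Ta library. The means were 2225 ± 1005 CPM in the metals and 871 ± 321 CPM in Ta, a log2 difference of 1.31 ± 0.38 (SE, adjusted p = 0.0446). The call was lost in 34 of 36 fits that left out 1 library (adjusted p up to 0.371) and without Co replicate 1 (1.15 ± 0.35, adjusted p = 0.0551), while the exact permutation kept it (adjusted p = 0.0122).

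The other miR-30 guide strands lay the same way without passing. Of miR-30e-5p the metals held 735 ± 303 CPM and Ta 342 ± 166 (log2 1.06 ± 0.46, adjusted p = 0.378). For miR-30c-5p the means were 1592 ± 714 CPM in the metals and 739 ± 329 CPM in Ta (log2 1.06 ± 0.53, adjusted p = 0.468). In Ta, miR-30e-5p read 183, 571, 270 and 342 CPM and miR-30c-5p read 860, 923, 925 and 248 CPM, and both overlapped the metal range. Ta had the lowest mean of the 9 groups for miR-30d-5p, miR-30a-5p, miR-30e-5p and miR-30c-5p.

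Over the family, 2 of 8 tested members were called higher and none lower, beside 2 of 270 (0.741%) higher over all miRNAs tested. With RLE size factors or without scaling factors 0 of 8 were called. The median log2 difference was 1.06, beside 0.19 over all miRNAs tested. All 8 values were above 0 with TMM factors, and 6 of 8 with RLE size factors (median 0.78) or without scaling factors (0.75). Over all miRNAs tested, 164 of 270 were above 0 with TMM factors, 121 with RLE size factors and 137 without scaling factors. The 8 include the 2 called members and passenger strands with other seeds, among them miR-30c-1-3p, which had no count in any Ta library. Summed per library, the tested members held 4651 to 16389 CPM in the metals, against 3430 to 4544 CPM in Ta, which do not overlap. With RLE size factors 26 of 32 metal sums lay above the highest Ta sum, and without scaling factors 23. Much of each sum was miR-30d-5p and miR-30a-5p, with metal means of 3622 and 2225 CPM beside a median sum of 8826 CPM. The sums thus restate those 2 calls. Of the other lists hypoxia came next with TMM factors, with 19 of 32 metal sums above the highest Ta sum. Of the passenger strands, miR-30a-3p differed by 0.25 ± 0.46 and miR-30e-3p by 0.55 ± 0.38 with TMM factors (adjusted p = 1.00 and 0.843), neither past the test. In the fit without Co replicate 1 the opposite strand of miR-30d, miR-30d-3p, was called lower in the metals: it was counted in 4 of 31 metal libraries and read 0, 2.80, 17.6 and 19.4 CPM in the 4 Ta libraries (adjusted p = 0.00334). With all libraries miR-30d-3p did not pass the low-count filter and was not tested, and it was named after its values were seen.

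**Figure D3:**
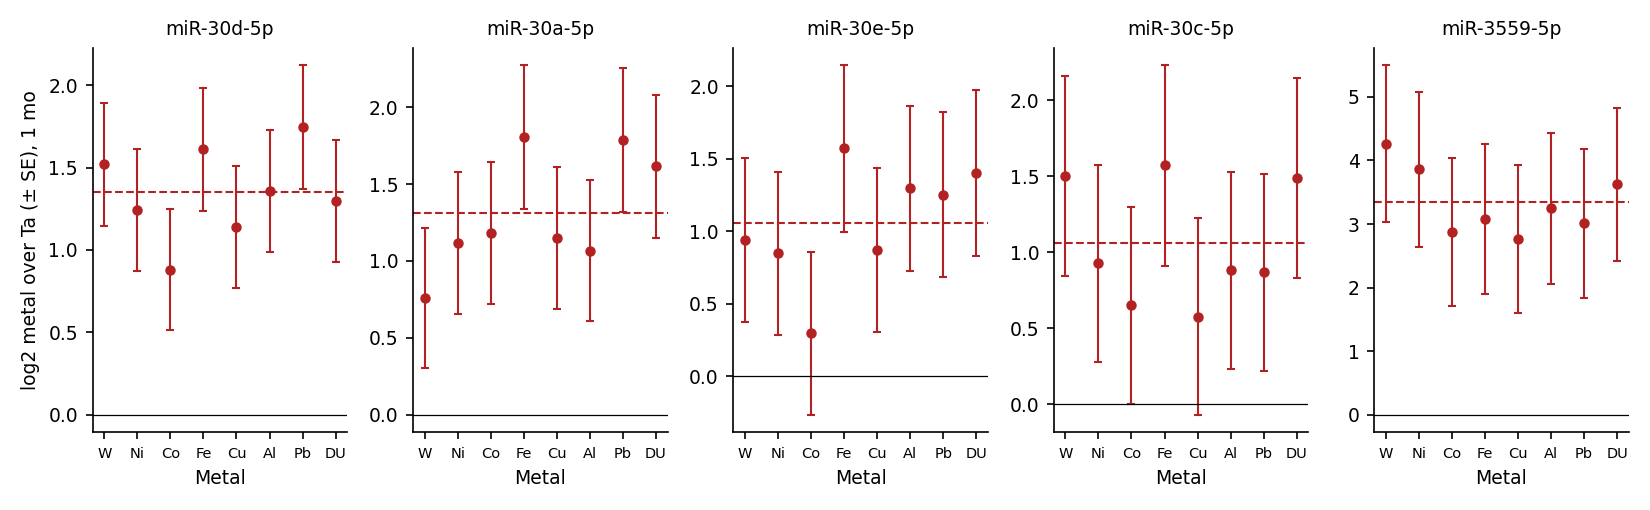
Log2 difference of each metal from Ta at 1 mo (points, ± SE from the fit) for 5 miRNAs, with the pooled difference as a dashed line and 0 as a solid line. Each panel has its own axis. All points lie above 0, from 0.88 in Co to 1.75 in Pb for miR-30d-5p.

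Among the lower calls miR-378b stood apart from the rest. The miR-378 family regulates energy metabolism in muscle and fat, and miR-378a lies within Ppargc1b, a metabolic coactivator. In the metals miR-378b read 0 to 4.98 CPM (median 0, counted in 6 of 32 libraries), against 6.98, 42.2, 25.2 and 38.5 CPM in Ta. These Ta values rest on 4, 36, 10 and 9 counts, and no metal library held more than 4. It was the only miRNA of 270 in which the libraries of the metals and of Ta did not overlap (0.37%). The low-count filter asks for enough counts in at least as many libraries as the smallest group holds. For miR-378b only the Ta libraries met it, so it entered the test through its high values in Ta. The missing overlap and the call follow in part from that. The means were 0.472 ± 1.20 CPM in the metals and 28.2 ± 15.9 CPM in Ta, and the fitted log2 difference was -6.03 ± 1.05 (adjusted p = 0.000627), a size that depends on the prior count where a metal group has none.

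The call of miR-378b was kept without any 1 library (adjusted p up to 0.00139) and by exact permutation (adjusted p = 0.00458; unadjusted 1.70e-05, the smallest the arrangements can give), and was lost in DESeq2 (log2 -6.10, adjusted p = 0.242). The permutation used the same filtered miRNAs, which miR-378b had entered through Ta alone. In the 4 metal libraries at the depth of Ta, of Fe, Pb and DU only, miR-378b was counted in 0 of 4. Its relative miR-378a-3p was at 2257 ± 1734 CPM in the metals and 2996 ± 1409 CPM in Ta (log2 -0.49 ± 0.39, adjusted p = 0.89). Per library, miR-378b came to 0% to 0.227% of miR-378a-3p in the metals, against 0.5% to 1.13% in Ta. The 2 are closely related, and how reads were divided between them is not given in the sources used here, so the level of miR-378b is uncertain.

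In the other 6 lower calls 1 or a few Ta libraries carried the difference. Neuronal miR-124-3p was counted in 11 of 32 metal libraries (0 to 255 CPM, median 0), against 0, 0, 2556 and 0 CPM in Ta (log2 -6.57 ± 1.23, adjusted p = 0.000801). For miR-9a-5p, another neuronal miRNA, 5 of 32 metal libraries had counts (up to 63.5 CPM), against 0, 0, 892 and 0 CPM in Ta (log2 -7.32 ± 1.36, adjusted p = 0.000833). Ta replicate 3 was thus the only Ta library with either. Passenger strand miR-29c-5p, from a gene whose guide strand represses collagens, was counted in 5 of 32 metal libraries (up to 47.0 CPM), against 300, 0, 0 and 0 CPM in Ta (log2 -6.46 ± 1.30, adjusted p = 0.00261). Without the 1 Ta library that held them, miR-124-3p, miR-9a-5p and miR-29c-5p were at 0 in all the other Ta libraries, so no fold can be given, and none was called (adjusted p = 1.00 for each).

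Both miRNAs of the Dlk1-Dio3 region leaned on Ta replicate 3 as well. For miR-379-5p 6 of 32 metal libraries had counts (up to 52.9 CPM), against 0, 28.2, 75.6 and 0 CPM in Ta (log2 -4.85 ± 1.19, adjusted p = 0.0148). Of miR-127-3p, the metals held 0 to 107 CPM (median 41.6), against 52.3, 78.6, 817 and 51.3 CPM in Ta (log2 -2.55 ± 0.66, adjusted p = 0.0161). For miR-127-3p 3 of the 4 Ta libraries lay inside the metal range. Without Ta replicate 3 the log2 differences were -3.74 for miR-379-5p (adjusted p = 0.126) and -0.66 for miR-127-3p (adjusted p = 1.00).

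The last of them, miR-451-3p, is the strand opposite the red-cell miRNA miR-451-5p. It was counted in 8 of 32 metal libraries (up to 20.4 CPM), against 85.5, 31.7, 12.6 and 0 CPM in Ta (log2 -4.46 ± 1.20, adjusted p = 0.0258). It did not pass when Ta replicate 1 was left out (-3.57, adjusted p = 0.196), without Ta replicate 2 (-4.27, 0.0656) and with the red-cell ratio as a covariate (-4.05, 0.208). With miR-451-5p, the guide strand, the groups read 1755 ± 1319 CPM in the metals and 1858 ± 1324 CPM in Ta (log2 -0.16 ± 0.52, adjusted p = 1.00).

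**Figure D4:**
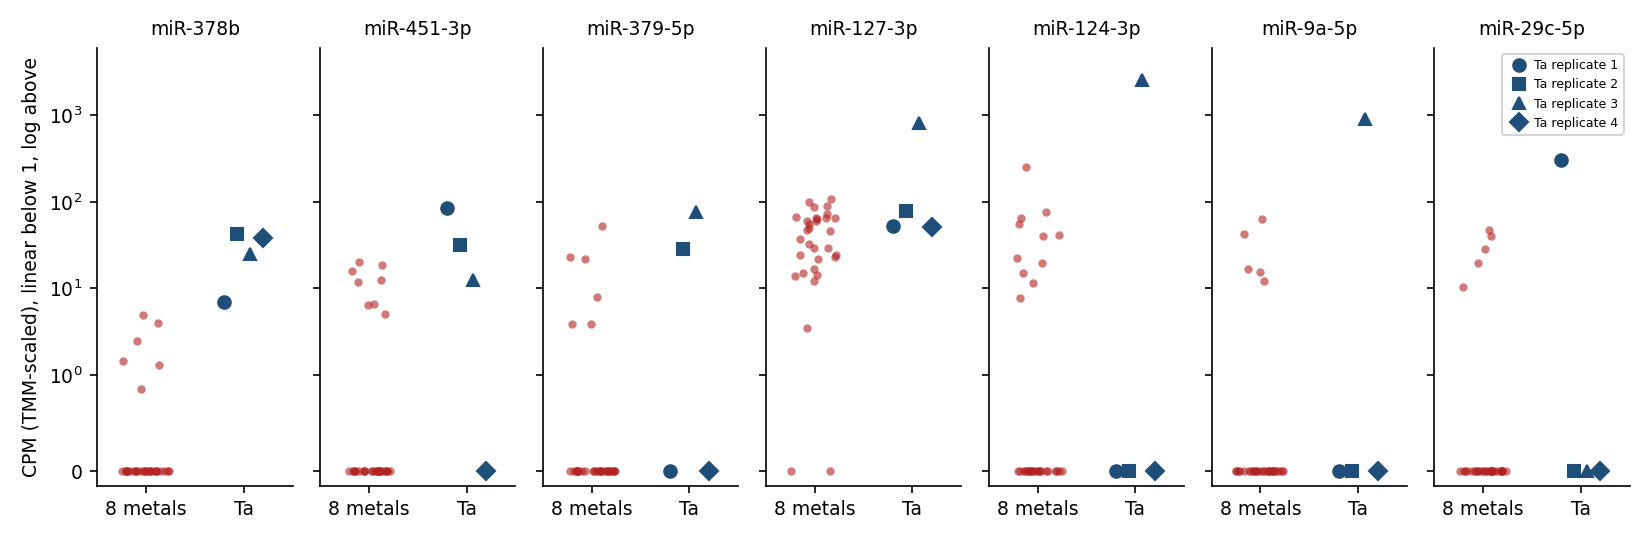
TMM-scaled CPM at 1 mo of the 7 miRNAs called lower in the metals, 1 point per library, with the Ta libraries marked by replicate (axis linear below 1 CPM and log above). Only miR-378b shows 4 Ta libraries above all metal libraries, and miR-124-3p and miR-9a-5p show a single one, Ta replicate 3.

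The contrast averages the logs of 8 group means, so metal groups without a count pull it down for sparse miRNAs. With the 32 metal libraries as 1 group, 5 of the 9 calls remained: miR-378b (adjusted p = 0.000585), miR-9a-5p and miR-30d-5p (0.00856 each), and miR-124-3p and miR-127-3p (0.0109 each). The exact permutation, which reads log2 CPM and not fitted means, called 4 of 270 (1.48%): miR-378b, miR-30d-5p, miR-30a-5p and miR-3559-5p. Both ways kept miR-378b lower and miR-30d-5p higher.

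Of miRNAs that missed the threshold, miR-3559-5p was the nearest among those with higher values in the metals. It was counted in 31 of 32 metal libraries (0 to 186 CPM, median 53.4), against 0, 19.9, 0 and 0 CPM in Ta. The means were 60.2 ± 41.9 CPM in the metals and 4.99 ± 9.97 CPM in Ta (log2 3.34 ± 1.07, adjusted p = 0.0833, or 0.0241 by exact permutation, 0.00935 by DESeq2 and 0.00426 by limma voom). In the 4 metal libraries at the depth of Ta, of Fe, Pb and DU only, it read 28.0 to 79.2 CPM. Its mature sequence, with the seed in capitals, is from a gene on the X chromosome within the bounds of Zdhhc15.
miR-3559-5p: uGACAGACuuaguacuacauga
Similar in kind were miR-542-3p, also from a gene on the X chromosome, in 26 of 32 metal libraries and 1 of 4 Ta libraries (adjusted p = 0.378), and miR-383-5p in 28 of 32 and 1 of 4 (adjusted p = 0.378).

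Another 4 of the nearest miRNAs had no count in any Ta library, where 3 counts over the 4 libraries set a floor of 1.46 CPM, which covers counting error only. The epithelial miR-200c-3p was counted in 21 of 32 metal libraries and 0 of 4 Ta libraries, at least 6.71-fold higher in the metals (adjusted p = 0.378). For miR-345-3p the counts were 19 of 32 and 0 of 4, at least 5.39-fold (adjusted p = 0.378), and for miR-134-5p of the Dlk1-Dio3 region 19 of 32 and 0 of 4, at least 4.95-fold (adjusted p = 0.378). For miR-181d-3p they were 17 of 32 and 0 of 4, at least 7.75-fold (adjusted p = 0.382). The Ta libraries were the shallower ones. In the 4 metal libraries at the depth of Ta, of Fe, Pb and DU only, miR-345-3p was counted in 4. There miR-200c-3p and miR-134-5p were counted in 3 each and miR-181d-3p in 2.

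Nearest on the lower side were miR-18a-5p of the miR-17-92 cluster, miR-122-3p, the passenger strand of the hepatocyte miRNA, and miR-340-3p. For miR-18a-5p 5 of 32 metal libraries had counts, against 0, 27.0, 0 and 0 CPM in Ta (adjusted p = 0.0546, or 0.0477 without Co replicate 1). Of miR-122-3p the metals held 0 to 57.4 CPM (median 6.54), against 342, 0, 0 and 12.8 CPM in Ta (adjusted p = 0.0833). For miR-340-3p the metals ran from 0 to 105 CPM, against 523, 0, 0 and 0 CPM in Ta (adjusted p = 0.212). Each leaned on 1 Ta library, without which miR-18a-5p and miR-340-3p were at 0 in all the other Ta libraries and none of the 3 was called (adjusted p = 1.00 for each). With RLE size factors miR-122-3p (adjusted p = 0.0217) and miR-18a-5p (0.0289) were called lower, and without scaling factors all 3 were (0.0157, 0.0222 and 0.0415 for miR-122-3p, miR-18a-5p and miR-340-3p). All 3 were also called lower without the low-count filter (adjusted p up to 0.0133), miR-122-3p by DESeq2 (0.00892) and miR-18a-5p in the fit of all times together (0.0195).

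Lists of tissue miRNAs held few calls. Of 3 muscle miRNAs tested out of 8 listed, edgeR called 0, with 1 at an unadjusted p under 0.05. For miR-1-3p, the main miRNA of skeletal and cardiac muscle, the metals ran from 0 to 11265 CPM (median 90.0), against 181, 46.9, 30.3 and 51.3 CPM in Ta (log2 1.66 ± 1.29, adjusted p = 0.89). Of the 32 metal libraries, 10 lay above the highest Ta library. Its partner miR-133a-3p was counted in 14 of 32 metal libraries (median 0 CPM) and 0 of 4 Ta libraries (adjusted p = 0.387), and 1 Cu library at 540 CPM and 1 Ni library at 413 CPM held much of the metal total. It was called higher by DESeq2 (adjusted p = 1.9e-10) and without the low-count filter (0.00338). Over the alternative settings its fitted log2 difference ran from 1.70 to 22.0. No Ta library held a count, so the fitted size cannot be read as a fold. The regeneration miRNA miR-206-3p read 571 ± 879 CPM in the metals and 548 ± 736 CPM in Ta (adjusted p = 1.00). Summed muscle miRNAs ran from 0 to 13392.5 CPM in the metals (median 426), against 1832, 260, 224 and 188 CPM in Ta.

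For the liver list edgeR called 0 of 6 members, with 2 at an unadjusted p under 0.05, or 2 lower with RLE size factors and 1 lower without scaling factors. DESeq2 called miR-122-3p of this list lower (adjusted p = 0.00892). Hepatocyte miR-122-5p read 23338 ± 16914 CPM in the metals and 19131 ± 16930 CPM in Ta (log2 0.18 ± 0.57, adjusted p = 1.00). Of miR-192-5p, shared with gut and kidney, there were 34065 ± 16924 CPM in the metals and 68697 ± 41054 CPM in Ta (log2 -1.03 ± 0.39, adjusted p = 0.217). In Ta, 2 libraries at 105206 and 102986 CPM lay above every metal library, and 2 at 37845 and 28751 CPM lay within the metal range.

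None of 8 erythrocyte, 8 leukocyte or 9 platelet miRNAs was called. The inflammation miRNAs miR-21-5p, miR-146a-5p and miR-155-5p differed by 0.52 ± 0.45, 0.15 ± 0.56 and -0.22 ± 1.34 on the log2 scale, and myeloid miR-223-3p by 0.89 ± 0.65 (adjusted p = 0.89 or more). Red-cell miR-16-5p differed by 0.38 ± 0.49. The abundant miR-191a-5p, miR-10a-5p and miR-10b-5p differed by 0.50 ± 0.62, -0.03 ± 0.60 and -0.37 ± 0.50. Of the inflammation list 1 of 6 tested was called, which was again miR-9a-5p. The lists for let-7 (9 tested), fibrosis (6), endothelium and smooth muscle (9), hypoxia (5), p53 targets (4), the miR-17-92 clusters (10), epithelium (11) and pancreas (4) held 0 calls, although the p53 list held 1 lower call with RLE size factors, and the miR-17-92 list 1 with RLE size factors and 1 without scaling factors. The let-7 median was 0.26 with TMM factors, -0.07 with RLE size factors and -0.03 without scaling factors, so its direction depends on the scaling.

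Of the brain and neuron list 2 of 5 tested members were called lower (median log2 -2.42), and of the Dlk1-Dio3 list 2 of 7 (median -0.94), beside 7 of 270 overall. These are the miRNAs of Ta replicate 3 described above. Summed Dlk1-Dio3 miRNAs ran from 0 to 466 CPM in the metals, against 89.0, 179, 1147 and 107 CPM in Ta, and Ta replicate 3 alone lay above the metal range. Summed brain miRNAs ran from 0 to 16603.5 CPM in the metals, against 5668, 758, 7243 and 893 CPM in Ta, which lie inside that range. In Ta replicate 3, 3764 CPM of that sum was miR-128-3p, which all 4 Ta libraries held.

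Among the 8 metals themselves no miRNA was called. An F test among their means called 0 of 270 (0%) by edgeR, with 22 at an unadjusted p under 0.05 and a smallest adjusted p of 0.21. Tested against Ta one at a time, Fe and Pb had 1 call each of 270 (0.37%), miR-30d-5p, and the other metals 0, all against the same 4 Ta libraries. Set against the mean of the other 8 groups, Ta had 9 calls (3.33%), Co and Pb 6 each (2.22%), Cu 3 (1.11%) and the other 5 metals 0. All 15 calls in single metals were on the higher side. Those of Cu were miR-1-3p, miR-1b and miR-6216, and miR-1-3p reached 11265 CPM in 1 Cu library with 231 CPM in the next. In Co the lead was miR-423-3p (log2 1.65, adjusted p = 0.00599), whose highest value, 14385 CPM, stood beside 1961 CPM in the next Co library. In Pb it was miR-423-5p (log2 1.59, adjusted p = 0.00827). Without Co replicate 1 the calls in single metals came to 5. Among 95 miRNAs counted in all 35 deeper libraries, Ta had the lowest mean of the 9 groups in 17 and the highest in 5, against 17 and 25 in Pb and 26 and 4 in Co. These means were taken over all 36 libraries, so that of Co includes the near-empty Co replicate 1.

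Later times gave the same contrast in other samples, and neither miR-30d-5p nor miR-30a-5p was called at 3, 6 or 12 mo. At 3 mo 7 of 167 miRNAs were called (4.19%), or 1 of 180 (0.556%), miR-340-3p, without the libraries under 20000 counts. At 6 mo 7 of 272 were called (2.57%), and at 12 mo, with 7 metals and no Ni group, 4 of 224 (1.79%), or 11 of 242 (4.55%) without them, 5 higher (2.07%) and 6 lower (2.48%). The log2 difference of miR-30d-5p was 0.76 ± 0.73, -0.01 ± 0.58 and 0.02 ± 0.49 at these times (adjusted p = 0.821, 1.00 and 1.00). Its mean was 15448 ± 23866 CPM in the metals and 7824 ± 2393 CPM in Ta at 3 mo, 4864 ± 1986 and 4810 ± 266 CPM at 6 mo, and 8715 ± 25124 and 4594 ± 726 CPM at 12 mo. Without the libraries under 20000 counts it was 10430 ± 4609 CPM in the metals and 7941 ± 3054 CPM in Ta at 3 mo, and 3921 ± 2035 CPM in the metals and 3961 ± 813 CPM in Ta at 12 mo, so the higher metal mean at 12 mo came from 1 near-empty library. Each time was scaled on its own, so these levels are compared within a time. For miR-30a-5p the differences were 0.85 ± 0.90, -0.02 ± 0.68 and -0.56 ± 0.52 at 3, 6 and 12 mo (adjusted p = 0.833, 1.00 and 0.73). Without the libraries under 20000 counts the guide strands lay below 0 at 12 mo, none called by edgeR. There miR-30a-5p was at -0.69 ± 0.33 (adjusted p = 0.239) and miR-30e-5p at -1.11 ± 0.39 (0.119). In the same fit miR-30c-5p was at -0.64 ± 0.45 (0.577) and miR-30d-5p at -0.11 ± 0.28. At 6 mo miR-30e-5p was at -0.17 ± 0.71 and miR-30c-5p at 0.74 ± 0.88.

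Whether the 1 mo difference itself differed from the mean of the later ones was tested in the libraries of all times. Of 320 miRNAs edgeR called 0 (0%), with 11 at an unadjusted p under 0.05. For miR-30d-5p the 1 mo difference exceeded the later mean by 0.96 (unadjusted p = 0.144, adjusted p = 1.00), or by 1.43 without the libraries under 20000 counts (unadjusted p = 0.00164, adjusted p = 0.534). In that fit 0 of 326 were called (0%), again with 11 at an unadjusted p under 0.05.

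**Figure D5:**
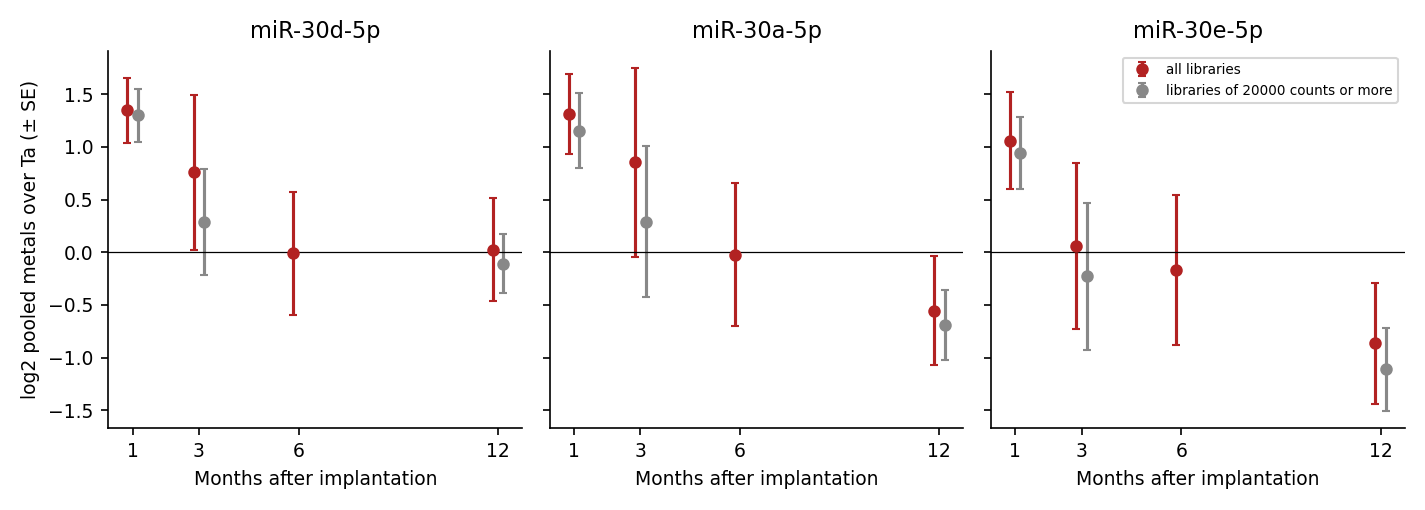
Log2 difference of the pooled metals from Ta (± SE) for miR-30d-5p, miR-30a-5p and miR-30e-5p at 1, 3, 6 and 12 mo, with all libraries and with those of at least 20000 counts (no library was under 20000 at 6 mo). The miR-30d-5p difference is 1.35 at 1 mo and near 0 at 6 and 12 mo.

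At later times miR-378b had another pattern. It was counted in 6 of 32 metal libraries and 0 of 4 Ta libraries at 3 mo, in 15 of 31 and 1 of 3 at 6 mo, and in 21 of 28 and 0 of 4 at 12 mo. At 1 mo it was in 6 of 32 and 4 of 4, and the difference between 1 mo and the later times did not pass (adjusted p = 1.00). Of the other lower calls, miR-124-3p was again called at 6 mo (log2 -5.12, adjusted p = 0.0299), from 1 of 3 Ta libraries with 27.1 CPM, while the metal mean was higher, 74.3 CPM in the metals against 9.04 CPM in Ta, so the fitted value and the means differ in sign. Without the near-empty libraries miR-9a-5p was called lower at 12 mo, from 2 of 27 metal libraries and 2 of 4 Ta libraries (log2 -6.31, adjusted p = 0.0265).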

How the data were processed

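Small RNA was sequenced from rat serum. Per the labels' protocols, a Norgen kit for small RNA was used on total RNA, and a NextSeq 500 for the reads. The authors deposited raw counts per mature miRNA (471 miRNAs) and every column carries a sample's title. Per the submitters' processing notes the build was Rnor 6.0. Which aligner and miRBase release were used is not given in the sources here. Depth sets precision: a miRNA with few counts in a shallow library can be missed.

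Counts were fitted in R 4.3.3 with edgeR 4.0.16 (filterByExpr with minimum count 10 and total 15, TMM factors, quasi-likelihood test, 1 mean per group, 36 libraries of 1 mo). The contrast was the mean of 8 metal groups minus Ta. P-values were adjusted by Benjamini-Hochberg over all miRNAs tested, with calls under 0.05. The filter left out 51 miRNAs without a count at 1 mo and 150 with few, which hold 0.0125% of the counts. CPM are TMM-scaled. Single values and all 270 miRNAs were also tested by exact permutation of the Ta label (58905 arrangements). DESeq2 1.42.0 and limma 3.58.1 served as alternatives.

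Named are all miRNAs called at 1 mo, those of smallest p up to 10 in each direction, 14 fixed ones and list members. The lists and members were chosen with earlier results of these data known. Added after seeing the data were the permutation over all miRNAs and thinning to 316852 counts. Replicate libraries of a group were not duplicates, since their counts differed beyond sampling noise. The labels do not say whether replicate numbers pair samples across groups, and the main fit did not pair them. Same-numbered libraries correlated in their deviations with a mean r of 0.03 (-0.31 to 0.37), against -0.009 (-0.34 to 0.39) for differently numbered ones. The fit was tested on simulated data. Sequences come from RefSeq (GRCr8), in which 248 of 270 miRNAs tested had a mature entry.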

Additional observations from a re-analysis of the deposited data

Results flagged for a closer look

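Among 76 sets of 4 libraries checked, 20 held 1 library far from the other 3 by Dixon's criterion. Library totals and miRNAs detected were checked in every group, and the named miRNAs in Ta. In the metals only miR-30d-5p, miR-30a-5p, miR-30e-5p and miR-378b were checked, so numbers of flags in Ta and in the metals cannot be compared. Not checked, for example, was miR-1-3p in Cu, at 11265 CPM in 1 library with 231 CPM in the next. Chance flags about 1 in 20 such sets, and sets in which 3 libraries are at 0 always meet the criterion when the other one is not.

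In Ta replicate 3, miR-124-3p stood at 2556 CPM and miR-9a-5p at 892 CPM with 0 in the other 3 Ta libraries, and miR-127-3p at 817 CPM with 78.6 CPM in the next. There miR-542-3p (45.4 CPM) and miR-383-5p (20.2 CPM) were also counted alone. In Ta replicate 1, miR-29c-5p (300.1 CPM), miR-340-3p (523 CPM) and miR-122-3p (342 CPM, next 12.8) stood apart, as did the muscle miRNAs miR-1-3p (181 CPM, next 51.3) and miR-206-3p (1651 CPM, next 213). In Ta replicate 2, miR-18a-5p (27.0 CPM) and miR-3559-5p (19.9 CPM) were counted with 0 in the other 3.

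In the metals miR-378b stood apart in each group in which 1 library had a count: Ni replicate 2 (4.98 CPM), Co replicate 3 (0.856 CPM), Fe replicate 3 (4.03 CPM), Al replicate 4 (2.50 CPM), Pb replicate 4 (1.30 CPM) and DU replicate 1 (1.45 CPM). Co replicate 1 detected 53 miRNAs, with 228 in the next Co library, and Cu replicate 3 detected 263, with 212 in the next.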

How the results depend on the processing

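The count of 9 calls stayed within 1.5 times with RLE size factors (10), no scaling factors (10), DESeq2 (11, of which 6 higher and 5 lower), an erythrocyte covariate (8), any metal group left out (7 to 9), a fit of all times together (12), libraries under 20000 counts left out (12), thinning (9) and any library left out (7 to 13). Fits that left out 1 library tested 281 to 289 miRNAs, not 270, since the smaller group loosened the low-count filter. The miRNAs called were not always the same. Of the 9, DESeq2 kept 4, the fit of all times together 6, and RLE size factors, no scaling factors and thinning 7 each. Without Ta replicate 3, 4 of the 9 were kept. It moved to 30 without the low-count filter, 3 with limma voom, 5 with the metals as 1 group and 4 by exact permutation. With a replicate block it was 2, miR-378b (adjusted p = 0.00236) and miR-30d-5p (0.0114). Same-numbered libraries had a mean r of 0.028 in their deviations, against -0.009 for differently numbered ones. A mean over all pairs cannot show whether the numbers mark a shared batch, and the labels do not say. The block gave 1 call in single metals (15 without it), 2 at 3 mo (7), 0 at 6 mo (7) and 0 at 12 mo (4), and 0 among metals and between times, as without it.

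Of the called differences, 3 turned sign. Without Ta replicate 3 miR-124-3p was at 6.05 (over all libraries left out, -7.41 to 6.05) and miR-9a-5p at 3.77 (-8.24 to 3.77), and without Ta replicate 1 miR-29c-5p was at 3.06 (-7.17 to 3.06), with Ta then at 0 by construction, so that the sign rests on the prior count. Without the low-count filter there were 9 calls among metals, 206 in single metals, and 46, 30 and 28 at 3, 6 and 12 mo. Without libraries under 20000 counts there were 5 in single metals, 1 at 3 mo and 11 at 12 mo, and the differences in log10 total (0.456) and in miRNAs detected (35.96) passed. Leaving out 1 library gave 0 to 3 calls among metals, 5 (Co replicate 1) to 28 (Al replicate 2) in single metals, 2 (Ta replicate 3) to 17 (Al replicate 4) at 3 mo (14 without W replicate 1 or 3, Fe 4, Pb 2 or Pb 4, 16 without W 4 or Cu 2), 4 (Ta replicate 1) to 21 (W replicate 3) at 6 mo (16 without Ta 3 or Al 3) and 2 (Ta replicate 2) to 11 (W replicate 3) at 12 mo. It gave 0.355 (Ta replicate 4) to 0.456 (Co replicate 1) for log10 total, 17.2 to 46.9 for miRNAs detected and -0.95 to 0.45 for the red-cell ratio. Between 1 mo and later times every alternative run gave 0 calls, and leaving out libraries was run there for Ta only. The causes of these shifts were not tested. The Ta side rests on 4 shallow libraries, in which a miRNA of few counts is easily missed.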

Other observations

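At 12 mo 2 of the muscle miRNAs were called lower in the metals. There miR-1-3p was at 539 ± 1275 CPM in the metals and 4794 ± 8284 CPM in Ta (log2 -3.71, adjusted p = 0.022), and miR-133a-3p at 55.6 ± 173 CPM in the metals and 459 ± 709 CPM in Ta (log2 -4.74, adjusted p = 0.0299). The highest Ta values were 17187 CPM for miR-1-3p and 1494 CPM for miR-133a-3p, so the SD in Ta exceeds its mean for both. The regeneration miRNA miR-206-3p was not called (log2 -1.18, adjusted p = 0.558), and the other calls with all libraries were miR-1b and miR-382-5p. Without the library under 20000 counts the abundant miR-191a-5p was called higher at 12 mo, with 195637 ± 196138 CPM in the metals and 22090 ± 11311 CPM in Ta (log2 2.91, adjusted p = 0.0289), and both strands of miR-423 were called higher with it, miR-423-5p by log2 1.73 and miR-423-3p by 1.70. These calls were named after their values were seen.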
